A study of Homo sapiens with 6 samples.

Results

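The transcripts described here encode the subunits of the 3 nuclear RNA polymerases and of Mediator. Members were all listed genes whose symbol is POLR1, POLR2 or POLR3 followed by a letter, or MED followed by a digit. There were 63 of them among 17646 genes, namely 33 polymerase subunits and 30 Mediator subunits. CRCP, a polymerase III subunit with another kind of symbol, stayed outside and is given once below. The cells were MDA-MB-231, an established human line of triple negative breast cancer. They had been transfected for 48 h with a control siRNA (siControl) or with an siRNA against USP32 (siUSP32), a deubiquitinase, with 3 libraries per group and no other difference stated. Whether the 3 libraries of each group are separate cultures is not stated, and p-values here reflect only the library-to-library spread, possibly technical.

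Polymerase I makes the precursor of the large ribosomal RNAs, polymerase II makes messenger RNA, and polymerase III makes transfer RNA, 5S ribosomal RNA and other short RNAs. Each enzyme has a pair of very large catalytic subunits, named A and B in the symbols, surrounded by many small ones, and several small subunits are built into more than 1 of the enzymes. Mediator is a large assembly that passes signals from DNA-bound activators to polymerase II. It is divided into head, middle and tail, held together by the backbone subunit MED14, and a kinase module that binds it reversibly.

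Levels are FPKM, fragments per kilobase of transcript and scaled to the mapped total, so levels of different genes can be compared per length. Differences are siUSP32 minus siControl on the log2(FPKM + 1) scale, which understates the change of low genes, and folds are ratios of mean FPKM. "Rose" and "fell" refer to a limma adjusted p under 0.05, adjusted over the 12003 genes whose mean FPKM reached 1. Read depth is unknown. USP32 itself was at 7.5, 7.48 and 8.32 FPKM in siControl and at 2.0, 1.88 and 2.01 in siUSP32 libraries, so the labels match their target. VIM, a mesenchymal marker, was at 1077 FPKM or above in every library. ESR1, PTPRC and CDH1, markers of luminal cells, leukocytes and epithelial junctions, stayed under 1 FPKM in all 6. Other luminal markers did not, as KRT8 averaged 2935 FPKM in siControl and 2988 in siUSP32, and FOXA1 2.47 and 2.72. GATA3, also luminal, averaged 1.12 and 0.73. COL1A1 of fibroblasts averaged 1.89 and 0.80, and PECAM1 of endothelium 1.02 and 0.41. CD44, another marker of this line, averaged 425 FPKM in siControl and 134.7 in siUSP32.

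The groups also differed in ways that touch every result here. The listed FPKM summed to between 686376 and 694831 in siControl and to between 855573 and 948641 in siUSP32 libraries. Set against the mean of the other siControl libraries, each siControl library changed by -0.00354 to 0.00539 (log2) per doubling of transcript length. Set against the siControl mean, the siUSP32 libraries changed by -0.41 to -0.292. Length and group therefore move together over all genes. For that reason each count is given both from the plain values and after correction of each library for transcript length, and the part of length in the plain differences cannot be told apart from the part of USP32 depletion. Rescaling each library to the same sum (TPM) shifted the median of all genes by -0.33, and quantile normalization shifted it by 0.16.

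Of the 63 members, 62 passed the filter on low values. The exception was MED12L, a paralog of the kinase module subunit MED12. Its FPKM was 0.62, 0.64 and 0.55 in siControl and 0.36, 0.27 and 0.52 in siUSP32 libraries, so every siUSP32 value lay below every siControl value. Among the 62, 31 rose, 12 fell and 19 did not pass. Over all genes tested 74.6% were called, 33.3% higher and 41.3% lower, so the members called higher were the larger share here and the smaller share overall. The groups did not overlap for 48 of the 62 members, against 77.8% of all genes. For each of those 48 the exact permutation p was 0.1, the lowest value possible with 3 libraries per group. In these bulk libraries, fewer cells holding a transcript and less of it per cell cannot be told apart.

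Polymerase subunits had a higher median difference than Mediator subunits. Of 33 polymerase subunits, 19 rose, 5 fell and 9 did not pass, with a median difference of 0.48, against -0.06 over all genes tested. Of 29 Mediator subunits, 12 rose, 7 fell and 10 did not pass, with a median of 0.04, but with TPM 6 rose and 17 fell. The difference of the 2 medians was 0.45 ± 0.051 (SD over the siUSP32 libraries). It was 0.46, 0.46 and 0.37 when each siUSP32 library was set against the siControl mean, so all 3 libraries gave the same direction.

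Correction for length reduced this gap. The polymerase median became 0.20, with 19 higher and 5 lower, and that of Mediator became 0.07, with 12 higher and 4 lower. The difference of the medians was then 0.13, against a background of 70.2% of genes called, 35.0% higher and 35.1% lower. Without the siControl replicate 3, 3 polymerase subunits rather than 5 were lower after this correction. Relative to the median of all genes, the polymerase median lay 0.55 higher in the plain values, 0.53 with TPM, 0.26 with quantile normalization and 0.19 after length correction. For Mediator the corresponding values were 0.10, 0.08, 0.14 and 0.06. The counts of polymerase subunits were 15 higher and 11 lower with TPM, and 25 higher and 5 lower with quantile normalization, which gave 16 higher and 4 lower for Mediator. Over all genes, 76.4% were called with TPM, 14.3% higher and 62.1% lower, and 73.8% with quantile normalization, 43.8% higher and 30.0% lower.

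**Figure D1:**
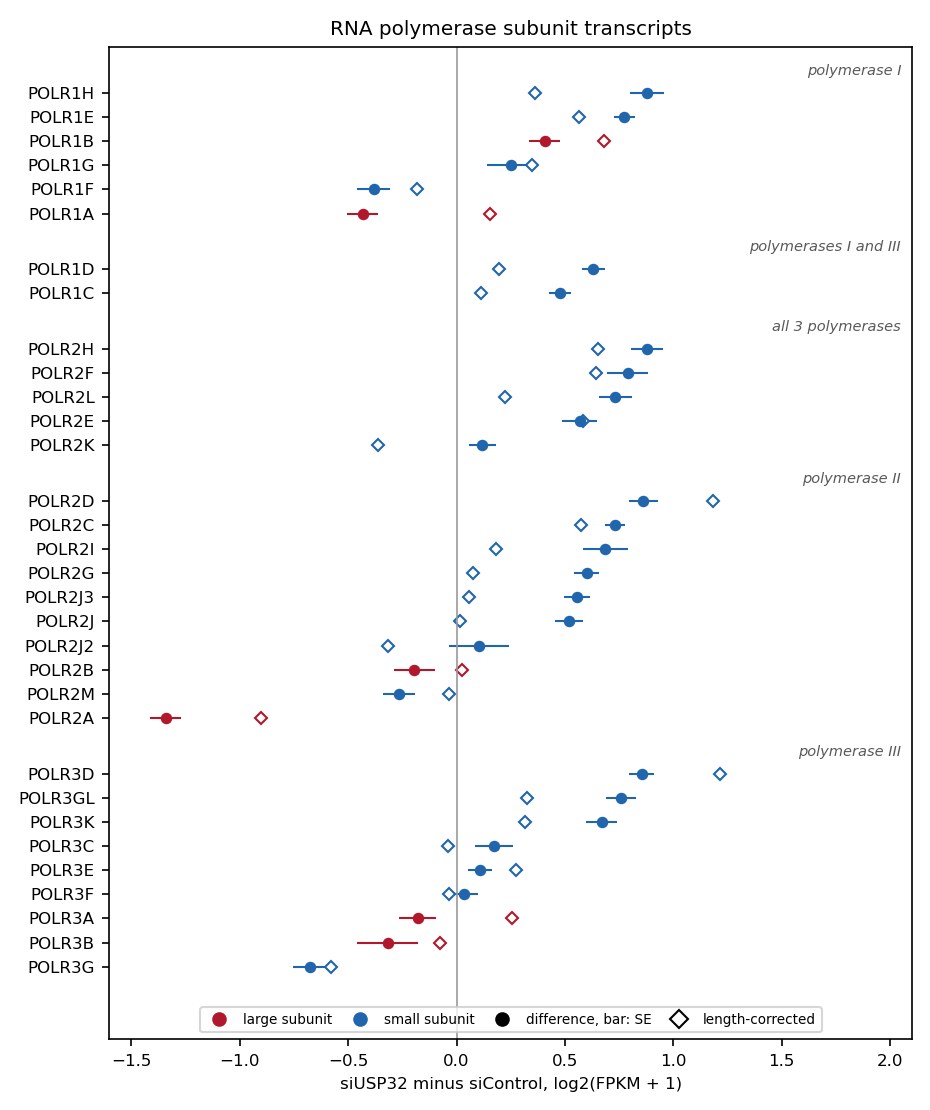
Difference between siUSP32 and siControl for the polymerase subunit transcripts reported here, in log2(FPKM + 1), by the enzyme they belong to. Filled points are plain differences with their SE, open diamonds are length-corrected ones, red marks large and blue small subunits. POLR2A lies farthest to the left on both scales, and POLR2D and POLR3D farthest to the right after correction.

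POLR2A, the largest subunit of polymerase II and its catalytic core, had the largest fall of any member. It lies on chromosome 17 (7484366 to 7514616, plus strand, GRCh38). Its FPKM was 19.09, 18.56 and 19.28 in siControl and 6.91, 6.28 and 7.51 in siUSP32 libraries. The 3 siUSP32 values all lay far below the lowest siControl value. The mean was 2.75-fold lower, a log2 difference of -1.34 ± 0.07 (SE, limma adjusted p = 2.42e-07). Length correction left -0.90 (limma adjusted p = 4.32e-07), TPM gave -1.71 and quantile normalization -1.14. The correction used the full-length transcript of 6751 bases, and with the shorter transcript of 2083 bases that the annotation gives as coding it was -1.49.

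POLR2B, the other large subunit of polymerase II, was at 39.88, 40.79 and 43.17 FPKM in siControl and at 36.63, 30.74 and 41.08 in siUSP32 libraries. These ranges overlap, and the difference of -0.20 did not pass (limma adjusted p = 0.0875), nor did the length-corrected one of 0.03. Without siUSP32 replicate 3 the plain difference was -0.29 and passed. The FPKM ratio of POLR2A to POLR2B was 0.479, 0.455 and 0.447 in siControl and 0.189, 0.204 and 0.183 in siUSP32 libraries. Within each library, therefore, the plain FPKM of the 2 catalytic subunits stood in a different proportion after siUSP32, with no overlap between groups. This ratio is not corrected for length, and the transcript of POLR2A, at 6751 bases, is longer than that of POLR2B, at 4108.

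Most small subunits of polymerase II rose in the plain values. Of the 10 transcripts of this enzyme alone, POLR2A and POLR2B included, 6 rose and 2 fell, with a median of 0.54. After length correction 3 rose and 2 fell with a median of 0.04, and with TPM 5 rose and 3 fell. POLR2D, which forms with POLR2G the detachable stalk of the enzyme, was at 11.79, 10.92 and 11.61 FPKM in siControl and at 21.09, 20.36 and 23.39 in siUSP32 libraries. All siUSP32 values were well above the siControl range. Its difference was 0.86 ± 0.07 (SE, limma adjusted p = 3.59e-06), and 1.18 after length correction, since its annotated transcript of 5042 bases is long for a protein of 142 residues.

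POLR2C, an assembly subunit that pairs with POLR2J, rose from 48.39 ± 1.19 to 80.94 ± 0.867 FPKM (SD, n = 3 each), a difference of 0.73, or 0.57 after length correction. POLR2G, the other stalk subunit, rose from 162.6 ± 3.41 to 247.3 ± 17.7 FPKM, a difference of 0.60 that fell to 0.08 and no longer passed after length correction. POLR2I, a small subunit with a role in proofreading, was the most abundant polymerase transcript per length, at 299.74, 318.92 and 285.45 FPKM in siControl and 468.2, 577.71 and 422.24 in siUSP32 libraries. Its difference was 0.69, and 0.18 after length correction. The amount that the correction takes off is set by transcript length alone. POLR2G and POLR2I, on transcripts of 827 and 913 bases, therefore lost more than POLR2C and POLR2D, on longer ones.

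POLR2J exists in near-identical copies, and reads may be split among them, so their values are uncertain. POLR2J rose by 0.52 and POLR2J3 by 0.55, while POLR2J2, at only 2.217 ± 0.269 FPKM in siControl, did not pass (0.10). After length correction POLR2J (0.02) and POLR2J3 (0.06) did not pass either, and POLR2J2 was lower (-0.32). POLR2M, known as a subunit of a Mediator-responsive form of polymerase II, was at 14.08, 14.39 and 13.86 FPKM in siControl and at 11.96, 10.33 and 12.52 in siUSP32 libraries. It fell by 0.27 on the log2 scale (limma adjusted p = 0.00968) without overlap, but not after length correction (-0.03).

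Subunits built into all 3 polymerases had a median of 0.73 over 5 transcripts, the highest of the groups by role in the plain values and after length correction, though not with quantile normalization. Of these, 4 rose and POLR2K did not pass. After length correction the same 4 were higher, POLR2K was lower (-0.36), and the median was 0.58. POLR2H, at 101.88, 95.63 and 100.13 FPKM in siControl and 172.99, 205.8 and 172.09 in siUSP32 libraries, rose most, by 0.88 ± 0.07 (SE, limma adjusted p = 5.42e-06), with 0.65 after length correction. POLR2F rose by 0.79 and POLR2E by 0.57, and these 2 moved little under the correction, to 0.64 and 0.58. POLR2L, on a transcript of 892 bases, rose by 0.73 and kept 0.22. POLR2K was at 209.59, 208.1 and 214.32 FPKM in siControl and at 228.71, 247.57 and 211.96 in siUSP32 libraries, and its plain difference of 0.12 turned negative with TPM (-0.25), quantile normalization (-0.22) and length correction. Without siUSP32 replicate 3, its plain difference was 0.17 and passed.

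Stretches upstream of 3 of these genes are printed because the genes belong to the same enzyme yet differ in direction. They are the 250 bases before the start of POLR2A, which fell, and of POLR2D and POLR2H, which rose, from RefSeq (GRCh38.p14). Each is written 5′ to 3′ on the strand of its gene. Capitals mark GGGCGG or its reverse complement CCGCCC, the core of the GC box read by SP and KLF factors.
POLR2A (chr17:7484116-7484365, plus strand): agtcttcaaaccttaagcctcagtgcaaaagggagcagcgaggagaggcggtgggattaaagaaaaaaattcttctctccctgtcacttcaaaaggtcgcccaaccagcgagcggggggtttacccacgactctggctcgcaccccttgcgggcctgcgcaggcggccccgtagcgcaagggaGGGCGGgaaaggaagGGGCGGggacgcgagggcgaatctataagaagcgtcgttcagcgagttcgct
POLR2D (chr2:127858156-127858405, minus strand): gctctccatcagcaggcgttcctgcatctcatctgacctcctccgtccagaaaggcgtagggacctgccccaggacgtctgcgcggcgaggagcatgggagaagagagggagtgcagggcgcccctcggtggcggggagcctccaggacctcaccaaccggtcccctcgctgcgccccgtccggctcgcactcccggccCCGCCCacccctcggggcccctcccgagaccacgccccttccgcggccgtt
POLR2H (chr3:184361460-184361709, plus strand): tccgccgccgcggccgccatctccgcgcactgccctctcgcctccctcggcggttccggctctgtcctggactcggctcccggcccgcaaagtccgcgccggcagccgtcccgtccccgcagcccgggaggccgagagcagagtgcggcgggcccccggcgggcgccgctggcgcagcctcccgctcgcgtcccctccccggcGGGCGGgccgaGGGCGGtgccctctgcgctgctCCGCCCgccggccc

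GGGCGG was present in all 3 stretches, with 2 matches for POLR2A, 1 for POLR2D and 3 for POLR2H, so the letters did not separate the gene that fell from the genes that rose. RefSeq promoters were at hand for 46 of the 63 members. GGGCGG occurred on either strand in 65.2% of these and in 41.6% of all 27305 promoters of the same length. That comparison set was neither limited to genes expressed here nor matched for GC content. The ETS core CCGGAAG occurred in 23.9% against 8.78%, the NRF1 letters GCGCATGC in 6.52% against 2.77%, and the YY1 letters AAGATGGCG in 4.35% against 0.615%. CCAAT was found in 28.3% against 32.9%, the TATA letters TATAAA in 4.35% against 11.3%, the TEAD letters GGAATG in 6.52% against 12.0%, and TGATGNAA, read by ATF4 and CHOP, in 0 of 46 against 3.26%. The NRF1, YY1, TATA and TEAD shares of the members rest on only 3, 2, 2 and 3 promoters. None of these 8 motifs contains another, and a match of letters is a description, not a bound site. Large and small subunits held GGGCGG at similar shares, 61.5% of 13 and 66.7% of 33. Other motifs differed more, with CCAAT in 46.2% of large and 21.2% of small subunits, and CCGGAAG in 15.4% and 27.3%.

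In polymerase I, 3 of 6 subunit transcripts rose and 2 fell, with a median of 0.33. After length correction 5 were higher and 1 was lower, while TPM gave 2 higher and 2 lower. POLR1A, the largest subunit, was at 6.01, 5.86 and 5.54 FPKM in siControl and at 4.17, 3.71 and 4.26 in siUSP32 libraries. It fell by 0.43 on the log2 scale without overlap (limma adjusted p = 0.000472). After correction for its annotated length of 12749 bases the difference was 0.16 in the other direction (limma adjusted p = 0.0409), which happened for no other called member.

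POLR1B, the second largest subunit, was at 17.64, 17.73 and 18.2 FPKM in siControl and at 24.51, 21.56 and 26.12 in siUSP32 libraries, and rose by 0.41, or 0.68 after length correction. With TPM its difference was 0.05 and did not pass. The FPKM ratio of POLR1A to POLR1B averaged 0.325 ± 0.0187 in siControl and 0.168 ± 0.00473 in siUSP32 libraries (SD, n = 3 each), with no overlap (exact permutation p = 0.1). This ratio is not corrected for length, and the transcript of POLR1A has 12749 bases against 4558 for POLR1B. POLR1E, which forms with POLR1G a heterodimer that aids elongation, rose from 34.44 ± 1.13 to 59.57 ± 1.24 FPKM, a difference of 0.77, or 0.57 after correction. POLR1H, a small subunit that helps cleave RNA, rose by 0.88 and kept 0.36.

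POLR1F, a stalk subunit, fell by 0.38, or by 0.18 after correction. POLR1G did not pass in the plain values (0.25, limma adjusted p = 0.0625), although leaving out siUSP32 replicate 2 (0.32) or replicate 3 (0.30) made it pass, and it was higher after length correction (0.35). The 2 subunits shared with polymerase III both rose. POLR1C rose by 0.48, which length correction reduced to 0.11 and below the threshold. POLR1D was at 114.1, 107.12 and 110.09 FPKM in siControl and at 169.36, 180.98 and 164.17 in siUSP32 libraries, a difference of 0.63, or 0.20 after correction.

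Of 10 transcripts of polymerase III alone, 4 rose, 1 fell and 5 did not pass, with a median of 0.14. Length correction gave 6 higher and 1 lower, and TPM 3 higher and 5 lower. POLR3A, the largest subunit, did not pass in the plain values (3.98, 3.65 and 4.02 against 3.62, 2.88 and 3.47 FPKM, a difference of -0.18), though the groups did not overlap, and it was higher after length correction (0.26). POLR3B, its partner, was at 5.7, 4.86 and 6.74 FPKM in siControl and at 4.93, 3.37 and 5.06 in siUSP32 libraries. Its difference of -0.32 did not pass (limma adjusted p = 0.0691), but it passed without siControl replicate 2 (-0.42) or siUSP32 replicate 3 (-0.40). The ratio of POLR3A to POLR3B overlapped between groups, at 0.682 ± 0.0786 and 0.758 ± 0.0869 (exact permutation p = 0.5). The ratios of the large pairs of polymerases I and II did not overlap. None of these ratios is corrected for length.

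POLR3G and its paralog POLR3GL, alternative subunits of the same position, moved in opposite directions. POLR3G, known for its expression in stem and tumour cells, was at 6.98, 7.15 and 7.26 FPKM in siControl and at 4.33, 3.6 and 4.37 in siUSP32 libraries. It was 1.74-fold lower (-0.68 ± 0.08 SE, limma adjusted p = 4.41e-05), and -0.58 after length correction. POLR3GL, the form of most differentiated tissues, was at 10.99, 10.36 and 11.07 FPKM in siControl and at 17.3, 19.36 and 20.32 in siUSP32 libraries. It was 1.76-fold higher (0.76 ± 0.07 SE, limma adjusted p = 1.11e-05), and 0.33 after length correction. The directions of both held with TPM (-1.02 and 0.42) and with quantile normalization (-0.34 and 0.94). Their FPKM ratio was 0.635, 0.69 and 0.656 in siControl and 0.25, 0.186 and 0.215 in siUSP32 libraries, with no overlap. This ratio is not corrected for length, and the transcript of POLR3G has 3285 bases against 1165 for POLR3GL.

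POLR3D, a subunit of the dimer that acts in initiation and termination, had the largest length-corrected rise of all members. It was at 6.75, 6.59 and 6.88 FPKM in siControl and at 12.86, 13.22 and 12.89 in siUSP32 libraries, a tight 1.93-fold difference (0.85 ± 0.06 SE, limma adjusted p = 1.22e-06), or 1.22 after correction. Its annotated transcript of 5494 bases is long for a protein of 398 residues. Its dimer partner POLR3E differed by 0.11 and did not pass, although it passed without siUSP32 replicate 2 (0.13), was higher after length correction (0.27) and with quantile normalization (0.21), and was lower with TPM (-0.25). POLR3K, the counterpart of POLR1H, rose by 0.67 (0.32 corrected). POLR3C and POLR3F, which form a subcomplex for promoter opening, did not pass on either scale (0.17 and 0.03, -0.04 for both after correction), although POLR3C passed without siControl replicate 1 (0.25). CRCP, the polymerase III subunit outside the symbol rule, went from 16.84 ± 0.996 to 19.17 ± 1.24 FPKM, a difference of 0.18 (limma adjusted p = 0.0417).

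**Figure D2:**
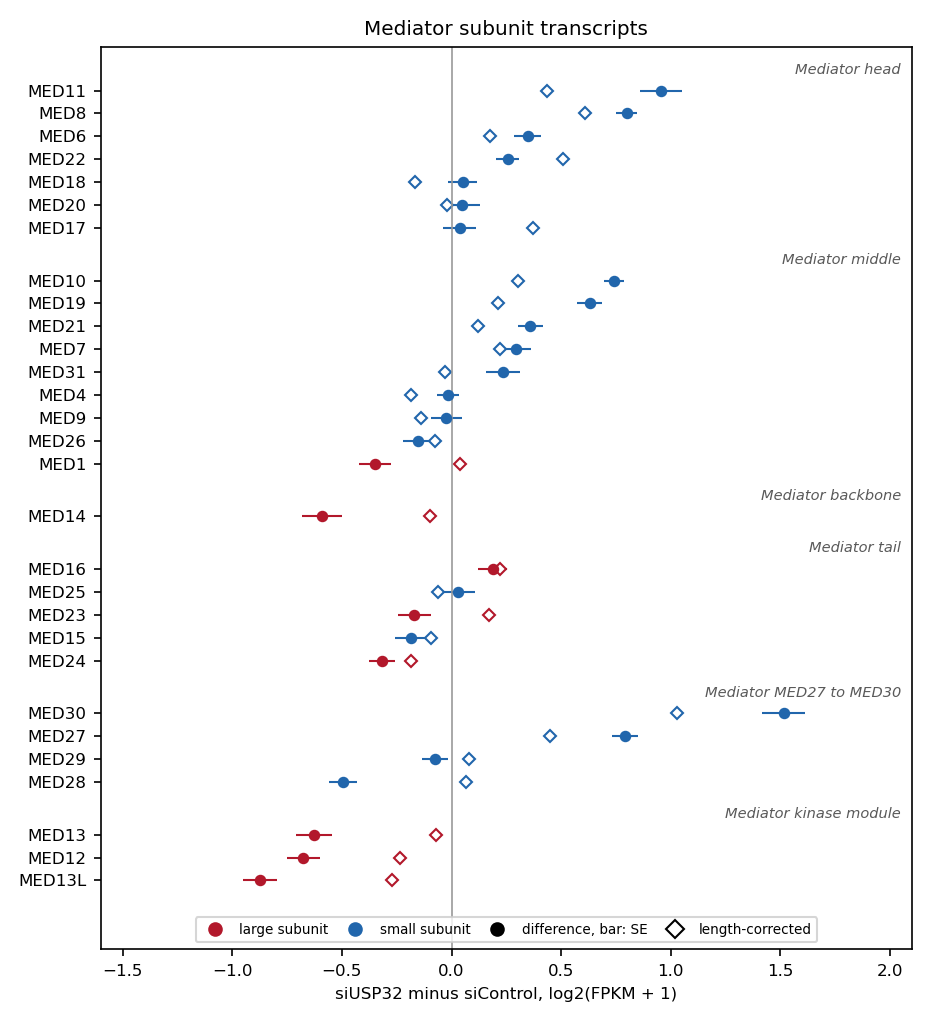
Difference between siUSP32 and siControl for the 29 tested Mediator subunit transcripts, in log2(FPKM + 1), by module. Filled points are plain differences with their SE, open diamonds are length-corrected ones, red marks large and blue small subunits. MED12, MED13 and MED13L of the kinase module lie to the left of 0 on both scales, and MED30 farthest to the right.

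Within Mediator the counts differed between modules, though little between head and middle in the plain values. Median transcript length differed too, from 1995 bases in the head to 10465 in the kinase module. The head, which contacts polymerase II, had 4 of 7 transcripts higher and none lower, with a median of 0.26, although TPM gave 2 higher and 3 lower. After length correction 5 were higher and none lower (median 0.37). MED8 was at 30.98, 29.84 and 29.68 FPKM in siControl and at 53.84, 53.44 and 52.38 in siUSP32 libraries, a difference of 0.80 ± 0.05 (SE, limma adjusted p = 5.55e-07), or 0.61 after correction. MED11 rose by 0.96 from 11.27 ± 0.384 to 22.94 ± 3.39 FPKM (0.43 corrected) and MED6 by 0.35 (0.17 corrected). MED22, the partner of MED11, rose by 0.26 (0.51 corrected), with a TPM difference of -0.10 that did not pass. MED17, the scaffold of the head, did not pass (0.04) but was higher after length correction (0.37), and MED18 and MED20 passed on neither scale.

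The middle module had 5 of 9 transcripts higher and 1 lower, with a median of 0.24, while length correction gave 3 higher and 1 lower (median 0.04) and TPM 2 higher and 4 lower. MED10 was at 238.63, 224.22 and 234.79 FPKM in siControl and at 386.99, 394.21 and 387.45 in siUSP32 libraries, the highest level per length of any Mediator transcript in both groups. It rose by 0.74 ± 0.05 (SE, limma adjusted p = 7.85e-07), or 0.30 after correction. MED19 rose by 0.63 (0.21 corrected), MED21 by 0.36 (0.12 corrected, which did not pass) and MED7 by 0.30 (0.22 corrected). MED21 and MED7, which pair in a hinge, had TPM differences of -0.01 and -0.06. MED31 rose by 0.24, but was at -0.03 after length correction and -0.11 with TPM and passed on neither. Its plain call was also lost without any 1 of siControl replicates 1 (0.22), 2 (0.24) and 3 (0.24) or siUSP32 replicate 1 (0.20). MED4, MED9 and MED26 did not pass, and after length correction MED4 was lower (-0.18). Without siUSP32 replicate 2, MED26 was -0.18 and passed.

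MED1, the large middle subunit bound by nuclear receptors, was at 8.92, 9.17 and 9.86 FPKM in siControl and at 7.65, 6.57 and 7.07 in siUSP32 libraries. It fell by 0.35 on the log2 scale without overlap, and was at 0.04 after length correction. MED14, the backbone, was at 12.31, 12.42 and 13.07 FPKM in siControl and at 8.34, 6.85 and 9.0 in siUSP32 libraries. It was 1.56-fold lower (-0.59 ± 0.09 SE, limma adjusted p = 0.00028), and -0.10 after correction, which did not pass. Neither MED1 nor MED14 was thus called on the length-corrected scale.

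In the tail, which binds activators, 1 of 5 transcripts rose and 1 fell, with a median of -0.17 (2 higher and 1 lower after correction, none higher and 4 lower with TPM). MED24 fell from 13.28 ± 0.265 to 10.47 ± 0.451 FPKM (-0.32, and -0.19 corrected). MED16, at 5.59 ± 0.271 and 6.5 ± 0.221 FPKM, rose by 0.19, with a TPM difference of -0.14, and its call was lost without siControl replicate 1 (0.16) or 3 (0.19) or siUSP32 replicate 1 (0.17). MED23, which binds MAP kinase targets such as ELK1, did not pass (-0.17), although it was lower without siUSP32 replicate 3 (-0.22) and with TPM (-0.50), and higher after length correction (0.17). MED15 (-0.18) and MED25 (0.03) did not pass, although MED15 passed without siUSP32 replicate 2 (-0.26).

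MED27 to MED30, metazoan subunits placed near the tail and head, held the largest rise of all members. MED30 was at 15.86, 15.05 and 20.25 FPKM in siControl and at 51.14, 52.22 and 47.29 in siUSP32 libraries. Every siUSP32 value lay far above the highest siControl value. The mean was 2.94-fold higher, a difference of 1.51 ± 0.10 (SE, limma adjusted p = 1.19e-06), or 1.03 after length correction and 1.16 with TPM. MED27 rose from 31.84 ± 1.89 to 55.73 ± 2.07 FPKM (0.79, and 0.45 corrected).

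MED28 went the other way in the plain values, at 5.41, 5.11 and 4.98 FPKM in siControl and 3.38, 3.38 and 3.35 in siUSP32 libraries. It fell by 0.50 on the log2 scale (limma adjusted p = 9.57e-05), but its annotated transcript of 10868 bases is among the longest of the members for a protein of 178 residues, and after length correction it stood at 0.07 and did not pass. The ratio of MED30 to MED28 rose from 3.31 ± 0.651 to 14.9 ± 0.696 without overlap (exact permutation p = 0.1). This ratio is not corrected for length. MED29 did not pass (-0.08).

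Of the kinase module, the 3 tested subunits with MED symbols fell. MED13L was at 7.05, 7.37 and 6.95 FPKM in siControl and at 3.56, 3.02 and 3.73 in siUSP32 libraries, 2.07-fold lower (-0.88 ± 0.08 SE, limma adjusted p = 8.68e-06). MED12, which activates the kinase, was at 4.66, 4.28 and 4.29 FPKM in siControl and 2.39, 2.17 and 2.61 in siUSP32 libraries (-0.68, limma adjusted p = 3.63e-05). MED13, which links the module to the rest of Mediator, was at 6.03, 6.11 and 6.2 FPKM in siControl and 3.77, 3.12 and 3.97 in siUSP32 libraries (-0.63, limma adjusted p = 0.000104). For none of the 3 did the groups overlap, and all 3 stayed lower with TPM and quantile normalization. After length correction MED13L (-0.27) and MED12 (-0.23) were still lower and MED13 (-0.07) did not pass. When the length curve was fitted by least squares, only 1 Mediator subunit of any module was lower, rather than 4. The ratio of MED12 to MED13 overlapped between groups, at 0.722 ± 0.0444 and 0.662 ± 0.0311 (exact permutation p = 0.2).

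Of the other subunits of that module, the kinases CDK8 and CDK19 and cyclin C, only CDK19 fell in the plain values. It was at 5.8, 5.14 and 5.38 FPKM in siControl and 2.95, 2.18 and 2.74 in siUSP32 libraries (-0.83, and -0.42 corrected). Its paralog CDK8 went from 20.99 ± 0.746 to 22.96 ± 1.43 FPKM and cyclin C (CCNC) from 85.96 ± 1.81 to 78.11 ± 7.95, and neither passed (0.12 and -0.14). After length correction CDK8 was higher (0.18) and CCNC lower (-0.20). With TPM all 3 genes were lower, CDK8 (-0.235) and CCNC (-0.51) included, and with quantile normalization 1 was higher and 2 were lower.

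**Figure D3:**
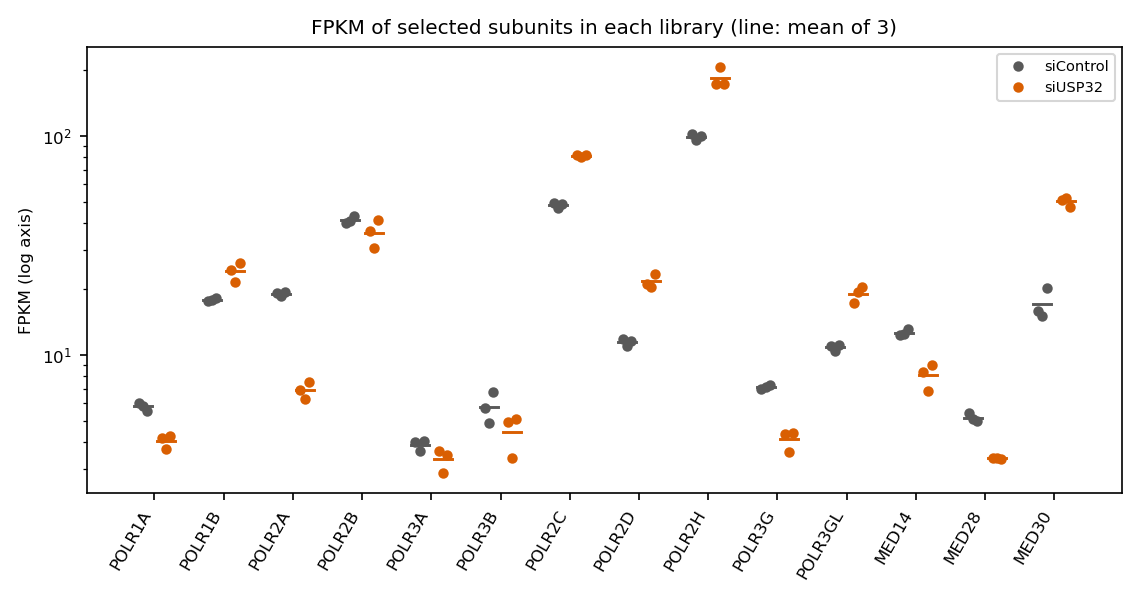
FPKM of selected polymerase and Mediator transcripts in each of the 6 libraries, on a log axis, with siControl in grey, siUSP32 in orange and a line at each group mean (n = 3). POLR2A, POLR3G and MED14 are lower, and POLR2C, POLR2D, POLR2H, POLR3GL and MED30 higher, in all 3 siUSP32 libraries than in any siControl library.

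Large subunits, here proteins of at least 800 residues, were compared with the smaller ones. POLR2A counts as large as the largest subunit of its enzyme, although the annotation gives no full protein for it. Just inside this limit lay MED16 with 877 residues, and just outside lay MED15 with 748 and MED25 with 747. Of 14 large subunits 2 rose, 8 fell and 4 did not pass, with a median of -0.33. Of 48 small subunits 29 rose, 4 fell and 15 did not pass, with a median of 0.42. The median of the large subunits lay 0.75 below that of the small ones (SD 0.0598 over the siUSP32 libraries, which gave -0.77, -0.88 and -0.78). With TPM none of the large subunits rose and 12 fell, and 21 small subunits rose and 16 fell. With quantile normalization 3 large subunits rose and 6 fell, and 38 small ones rose and 3 fell.

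This gap was smaller on the length-corrected scale. After length correction 5 large subunits were higher and 4 lower (median -0.02), and 26 small subunits were higher and 5 lower (median 0.19), so the difference of medians shrank from -0.75 to -0.21. The 2 large subunits that rose were POLR1B and MED16, and without siControl replicate 1 or 3 or siUSP32 replicate 1 only POLR1B did. The 5 corrected ones became 2 without siControl replicate 1 and 3 without siControl replicate 3. The 5 corrected small subunits called lower became 3 without siControl replicate 3. The 6 large polymerase subunits went from a median of -0.26 to 0.09 and the 8 large Mediator subunits from -0.47 to -0.09.

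Small subunits were also split by the length of their transcripts. Of 34 small subunits with a transcript under 3000 bases 25 rose and none fell (median 0.58, or 0.19 corrected). Of 14 with a transcript of at least 3000 bases 4 rose and 4 fell (median -0.02, or 0.18 corrected). In the latter set MED28, POLR1F, POLR2M and POLR3G fell, and MED22, POLR2D and POLR3D were among those that rose. With TPM the counts were 19 higher and 7 lower for the short set, and 2 higher and 9 lower for the long one. Across members, the plain difference and log2 transcript length had a Pearson r of -0.684 (n = 62 genes of the same 6 libraries), against -0.449 over all genes, and the correlation was -0.501 for the 33 polymerase and -0.882 for the 29 Mediator transcripts. After correction it was -0.0868 over the 62, 0.158 over the polymerase and -0.481 over the Mediator transcripts. These describe genes measured in common libraries, which are not independent replicates.

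**Figure D4:**
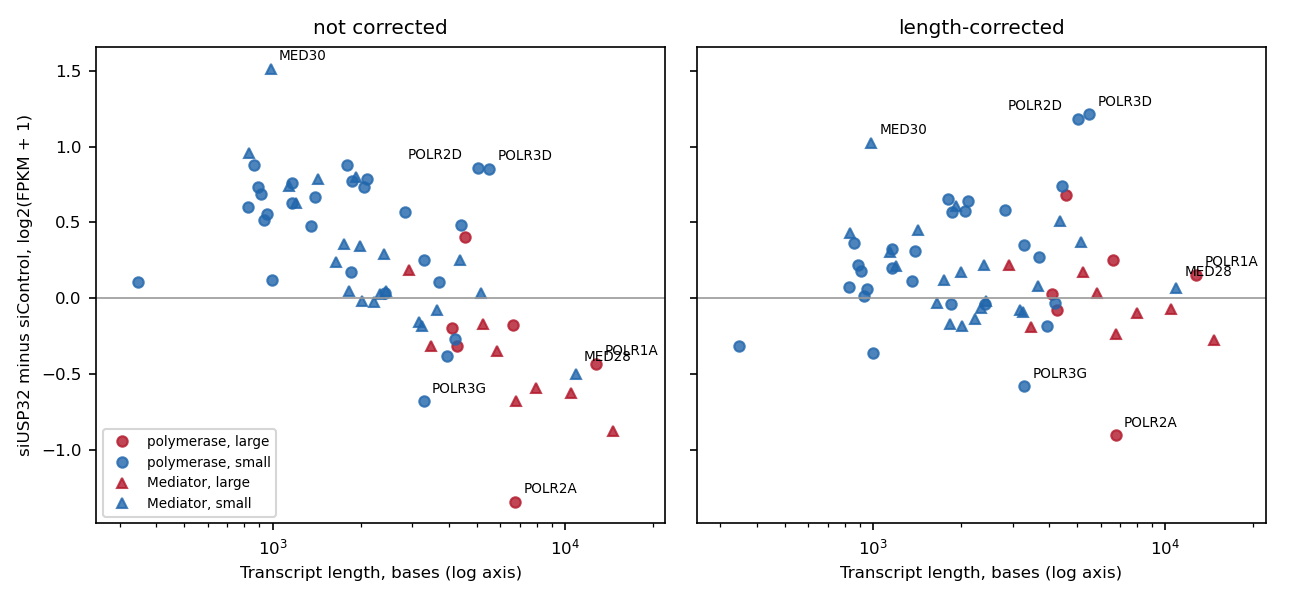
Difference between siUSP32 and siControl in log2(FPKM + 1) against transcript length in bases (log axis) for the 62 tested members, before and after correction for length. Circles are polymerase and triangles Mediator subunits, red large and blue small. The downward trend on the left (r = -0.684) is nearly absent over all members on the right (r = -0.0868). It remains there among Mediator transcripts (r = -0.481) but not among polymerase ones (r = 0.158). On the right POLR2A and POLR3G lie lowest and POLR3D, POLR2D and MED30 highest.

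With both scales set side by side, 25 members rose on each and 6 fell on each. The 6 were POLR2A, POLR3G, POLR1F, MED12, MED13L and MED24. Another 6 rose and 5 fell in the plain values only, 5 were higher and 3 lower after correction only, 11 were called on neither scale, and POLR1A changed direction. The corrected falls depended on the curve. When it was fitted by least squares, 1 Mediator subunit rather than 4 and 3 polymerase subunits rather than 5 were lower after correction. POLR2A was also low against other transcripts within each library. Its FPKM over the median of the 10 small subunits POLR2C to POLR2L averaged 0.189 ± 0.00251 in siControl and 0.0424 ± 0.00737 in siUSP32 libraries. The same ratio for POLR2B went from 0.412 ± 0.0197 to 0.223 ± 0.0502, so it was lower for both large subunits of the enzyme. These ratios are not corrected for length, and most of the small subunits have shorter transcripts than either. After length correction POLR2B itself differed by 0.03 and did not pass. The ratio of POLR2A to MED14, whose transcript is also long, went from 1.51 ± 0.0393 to 0.86 ± 0.0493. None of these ratios overlapped between groups. These ratios were chosen after the values were seen.

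The wider machinery was read from lists of other transcription factors. Over all genes tested 33.3% were higher and 41.3% lower, against 35.0% and 35.1% after length correction and 14.3% and 62.1% with TPM. A list with counts near these shares does not stand out from all genes. With TPM, for example, 8.7% of the pausing and elongation factors were higher and 56.5% lower. Of 18 general factors of polymerase II, 10 rose and 1 fell (median 0.31), and after length correction 12 were higher and 1 lower, while TPM gave 6 higher and 6 lower. CDK7, the kinase of TFIIH that phosphorylates the tail of POLR2A, rose from 99.63 ± 3.56 to 167.1 ± 1.81 FPKM (0.74, and 0.40 corrected). GTF2F2, the small subunit of TFIIF, rose by 0.67. GTF2A1, the large subunit of TFIIA, fell from 13.67 ± 0.298 to 7.05 ± 1.4 FPKM (-0.88, and -0.47 corrected).

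TFIID, the factor that recognises core promoters, was split, with 6 of 15 subunits higher and 4 lower (6 and 5 after correction, 2 and 7 with TPM). TAF9B was at 28.99, 28.45 and 28.98 FPKM in siControl and 9.11, 8.48 and 9.73 in siUSP32 libraries, a difference of -1.56 that length correction left at -1.57. TAF4 fell as well (-0.95, and -0.66 corrected), while TAF12, its histone-fold partner, rose by 0.82 (0.46 corrected) and TAF10 by 0.82 (0.40 corrected). TAF4 and TAF12 thus differed in direction on both scales.

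Of 23 pausing and elongation factors, 10 rose and 6 fell, with 14 higher and 3 lower after correction and 2 higher and 13 lower with TPM. NELFE, a subunit of the pausing factor NELF, was at 72.23, 74.14 and 74.14 FPKM in siControl and 147.35, 161.85 and 150.82 in siUSP32 libraries (1.05, and 0.76 corrected). CDK9, the kinase that releases paused polymerase, rose by 0.64 (0.58 corrected). Its cyclin CCNT1 fell (-0.72, and -0.27 corrected), and so did AFF4, the scaffold of the super elongation complex, from 18.37 ± 0.641 to 6.47 ± 0.925 FPKM (-1.38, and -0.84 corrected).

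Of 7 polymerase I factors 3 rose and 1 fell, with 4 higher and none lower after correction and 2 higher and 5 lower with TPM. TAF1A, a subunit of the promoter selectivity factor, rose from 10.95 ± 1.31 to 25.05 ± 3.34 FPKM (1.12, and 0.94 corrected), and TAF1D rose by 0.68. UBTF, the architectural factor of ribosomal genes, fell by 0.32 on the log2 scale, but was at 0.00 after correction. Of 16 polymerase III factors 9 rose and 3 fell, with 11 higher and 1 lower after correction and 7 higher and 6 lower with TPM. MAF1, the repressor of polymerase III, rose from 129.6 ± 2.32 to 244.8 ± 18.7 FPKM (0.91, and 0.65 corrected), and GTF3A, the factor for 5S genes, by 0.65. The subunits of TFIIIC differed in direction. GTF3C1 (-0.48) and GTF3C4 (-0.72) fell, and after correction GTF3C1 (-0.03) did not pass, while GTF3C5 (0.56, and 0.49 corrected) and GTF3C6 (0.55, and 0.06 corrected, which did not pass) rose.

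Of 6 assembly factors of the polymerases, GPN3, a GTPase needed for nuclear import of polymerase II, rose by 0.68 (0.36 corrected) and the others did not pass. After length correction 4 of the 6 were higher, GPN3 included, and with TPM 1 was higher and 3 were lower. Of 5 genes of mitochondrial transcription, TFB2M (0.58) and POLRMT (0.21), the mitochondrial polymerase, rose and MTERF1 (-0.22) fell, with 2 higher and 1 lower after correction and 1 higher and 2 lower with TPM.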

How the data were processed

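RNA of 3 siControl and 3 siUSP32 libraries of MDA-MB-231 cells was sequenced. The authors deposited FPKM with 2 decimals, per the file headers, on a build that the submitters' processing notes name as GRCh38.p13. Aligner, counting tool, annotation, strand handling and filters were not given in the sources used here. Both the transcript lengths behind the FPKM and the read depth are unknown, and count models were not applied.

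The members and gene lists were chosen with earlier results of these data known. The scale was log2(FPKM + 1), for the 12003 of 17646 genes whose mean FPKM reached 1, tested with limma 3.58.1 in R 4.3.3, a mean-variance trend, no covariate, 2-sided tests and Benjamini-Hochberg adjustment over all genes tested. The same fit was tested on simulated data. Exact permutation tests were run for single values. Transcript length, GC content, location and coding length in residues came from GENCODE 29 on GRCh38 through Entrez identifiers, for 11965 tested genes (99.7%). That annotation marks the full-length POLR2A transcript for a sequence error, and its length was used all the same. For length correction, a robust loess curve (span 0.5) through the deviations of each library from the mean of the 6 libraries was subtracted. Promoters came from RefSeq (GRCh38.p14), with the 250 bases before the start searched on both strands.

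Named with values were the 2 largest subunits of each polymerase, Mediator subunits of at least 800 residues, up to 3 rises and 3 falls per role group by adjusted p, paralogs, members that did not pass, members whose call changed direction with the length correction, and up to 2 rises and 2 falls per list. A few more were named after their values were seen. For 1 polymerase subunit, which stays in the counts and medians, no values are reported here. Alternatives were a pseudocount of 0.1, no filter, a minimum mean FPKM of 5, TPM, median-ratio and quantile scaling, no trend, array weights, GC correction, the replicate number as a block, a size limit of 500 residues and leaving out each library. A least-squares loess curve, the shorter POLR2A transcript, and length correction without each library were added after seeing the data.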

Additional observations from a re-analysis of the deposited data

How the results depend on the processing

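The limits are the unknown depth, the unknown transcript lengths behind the deposited FPKM, 3 libraries per group, and a trend with transcript length in the siUSP32 libraries that a correction can only reduce. Counts of polymerase, Mediator, large and small subunits stayed within 1.5 times under a pseudocount of 0.1, no filter, no trend, median-ratio scaling, the replicate block and the limit of 500 residues.

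With TPM, 1716 genes were higher and 7453 lower. Among the members, 11 polymerase subunits were lower, 6 Mediator subunits higher and 17 lower, 0 large subunits higher and 16 small ones lower. A minimum mean FPKM of 5 gave 3068 genes lower, with fewer genes tested, 4 Mediator and 5 large subunits lower, and a polymerase minus Mediator difference of medians of 0.51. GC correction gave 3 polymerase subunits lower, 1 large subunit higher and a large minus small difference of -0.81. Quantile normalization gave 4 Mediator subunits lower, and differences of medians of 0.12 (polymerase minus Mediator) and -0.47 (large minus small). Length correction gave 4 Mediator subunits lower, 5 large subunits higher and 4 lower, and differences of 0.13 and -0.21. Array weights gave 1 large subunit higher. With a least-squares curve the length-corrected counts of lower calls were 3 for polymerase, 1 for Mediator, 2 for large and 2 for small subunits. The cause of these changes was not tested except where fewer genes were tested.

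Leaving out each library gave 1 to 2 large subunits higher, or 2 to 5 after length correction. The length-corrected counts of lower calls were then 3 to 5 for polymerase and 3 to 6 for small subunits. Among members called in the plain values or under the alternative, the difference changed sign with TPM for MED7 (-0.060), MED16 (-0.14), MED17 (-0.31), MED18 (-0.30), MED20 (-0.27), MED21 (-0.0099), MED22 (-0.10), MED25 (-0.32), MED31 (-0.11), POLR2K (-0.25), POLR3E (-0.25) and POLR3F (-0.32). In the same sense, with GC correction MED4 (0.28), MED25 (-0.12) and POLR2M (0.0089) did, and with quantile normalization MED9 (0.28), POLR2K (-0.22) and POLR3A (0.21). With length correction MED1 (0.036), MED23 (0.17), MED28 (0.067), MED31 (-0.032), POLR1A (0.16), POLR2J2 (-0.32), POLR2K (-0.36) and POLR3A (0.26) did.

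The replicate numbers are shared by the groups, but same-numbered libraries deviated together with r = -0.08, 0.07 and 0.12, so the numbers are not taken to pair them, and not every library correlated best with its own number. With the replicate block 20 polymerase subunits were higher and 7 lower, 12 Mediator subunits higher and 8 lower, 2 large subunits higher and 10 lower, and 30 small ones higher and 5 lower. With length correction and the replicate block together, 4 large subunits were higher and 4 lower, the differences of medians were 0.13 and -0.21, and the same members changed sign, with MED18 (-0.17) in addition, which had that value but was not called under length correction alone.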
